A study of Mus musculus with 4 samples.

Results

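Chemokine ligands are the secreted proteins that direct leukocytes out of the blood and through tissue. They were taken here as every gene whose symbol is Ccl, Cxcl, Xcl or Cx3cl followed by a number and which has a probe set listing that gene alone. This gave 33 genes out of 18193 on the arrays, represented by 51 probe sets, and each gene was read from the brightest of its probe sets. Of these 33 genes, 22 averaged more than 95.0, the median over non-control probe sets and the limit used for testing, and 11 lay below it.

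The arrays were hybridised with total RNA from fibrotic livers of C57BL/6 mice. Every mouse, controls included, had received 30 doses of the hepatotoxin carbon tetrachloride at 1 ml/kg. For the last 7 days the PBS group had phosphate-buffered saline with 0.1 percent mouse serum albumin, and the G-CSF group had recombinant human granulocyte colony-stimulating factor at 100 µg/kg, a cytokine that expands neutrophil production and mobilises marrow cells. Each group had 2 arrays (replicates 1 and 2), and the question was which transcripts differ between the groups. The labels call the tissue liver and the cell type bone marrow-derived cells, name no sort, and do not say whether replicates were separate animals or pools, so p-values reflect no more than the spread among these arrays, which may be technical. No age is given for the mice.

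Chemokines act on G protein-coupled receptors, and the receptors a leukocyte carries decide which ligands it follows. CXC ligands of CXCR2 call neutrophils, CCR2 ligands call inflammatory monocytes, and ligands of CCR1 and CXCR3 call macrophages, NK cells and effector T cells. In injured liver they are made by Kupffer cells, stellate cells, endothelium, hepatocytes and the recruited leukocytes themselves.

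The array of PBS replicate 1 resembled the others least. Over 12187 tested genes its Pearson correlation with each was 0.813 to 0.844, against 0.939 to 0.974 among the other 3 arrays. T cell markers (10 measured of 12 listed) summed to 22365 there and to 3488, 5241 and 3546 on PBS replicate 2 and G-CSF replicates 1 and 2. NK cell markers (7 of 8) summed to 36025 there against 1833, 2125 and 2146, but Gzma alone gave 34946 of the 36025. Of 9 tested T cell markers 7 were highest on PBS replicate 1 and 1 lowest. Of 5 tested NK cell markers 2 were highest there and 3 lowest. Markers of Kupffer cells, stellate cells and fibroblasts, endothelial cells, cholangiocytes, hepatocytes and monocytes were all lower in sum on PBS replicate 1 than on each other array, and every tested member of these 6 lists had its lowest signal there. Neutrophil markers (10 of 12) summed to 26199 and 8250 with PBS and to 247140 and 191593 with G-CSF. Hepatocyte markers (6 of 7) summed to 147739 to 240099, so liver transcripts were abundant on all arrays, and leukocyte markers (4 of 4) summed to 30653 to 63888. No measured marker had a signal of 0. Gapdh control signals at the 3' end exceeded those at the 5' end, a measure of RNA integrity, by a factor of 14.8 to 15.7 with PBS and 19.1 to 20.2 with G-CSF. In whole tissue RNA, fewer cells of a type and less RNA per cell cannot be told apart.

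**Figure D1:**
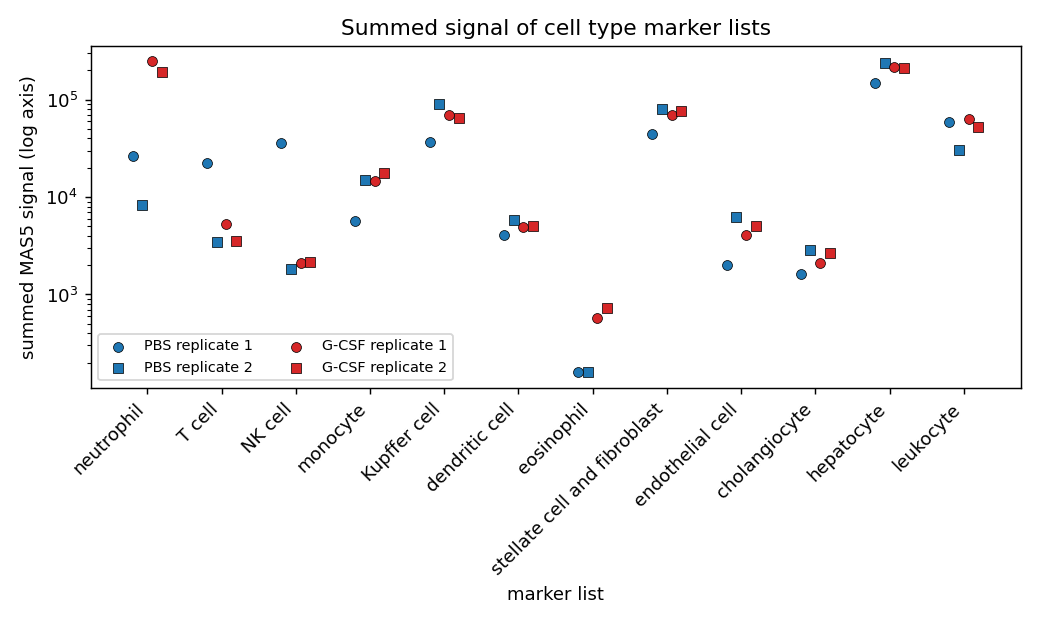
Summed MAS5 signal (log axis) of the measured members of each marker list on each of the 4 arrays. The T cell and NK cell sums are highest on PBS replicate 1, the latter mostly through Gzma. The Kupffer cell, endothelial and hepatocyte sums are lowest there, and the neutrophil sums are highest on both G-CSF arrays.

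Few chemokine ligand genes separated the treatments. By limma over all 12187 genes, 0 ligand genes passed an adjusted p of 0.05 (0.0 percent of all genes did), and the smallest adjusted p among ligands was 0.678. At an unadjusted p below 0.05 there was 1 ligand gene, Ccl8, while 382 genes were higher (3.13 percent) and 47 lower (0.386 percent) over the whole array. By size, Ccl8, Cxcl2 and Cxcl5 were at least 2-fold higher with G-CSF with no overlap of the groups, 3 of 22 against 4.04 percent of all tested genes. Cxcl13 was at least 2-fold lower with no overlap, 1 of 22 against 1.52 percent. The median difference over the 22 genes was 0.34 on the log2(signal + 23) scale, against 0.07 over all tested genes. It was 0.90 against PBS replicate 1 alone and −0.18 against PBS replicate 2 alone, where the medians of all genes were 0.19 and 0.00066. Differences below are G-CSF minus PBS on this scale, which understates changes of weak signals, with the SE that limma fitted (n = 2 arrays in each group). Signals are given in the order of replicates 1 and 2, and a signal is called above background when it exceeds the highest of 27 bacterial control probe sets on its array (106 and 94.6 for PBS, 86.4 and 63.0 for G-CSF). In 9 of the 22 genes 1 signal was not above background, on PBS replicate 1 for Ccl3, Ccl17, Ccl27a, Cxcl2, Cxcl5 and Cxcl11 and on G-CSF replicate 1 for Ccl12, Cxcl13 and Cxcl17. With such signals raised to the limit of their array, a setting added after the values were seen, Ccl8 and Cxcl5 were still at least 2-fold higher (3.45 percent of all genes) and Cxcl13 lower (1.71 percent), and Cxcl2 was not called.

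**Figure D2:**
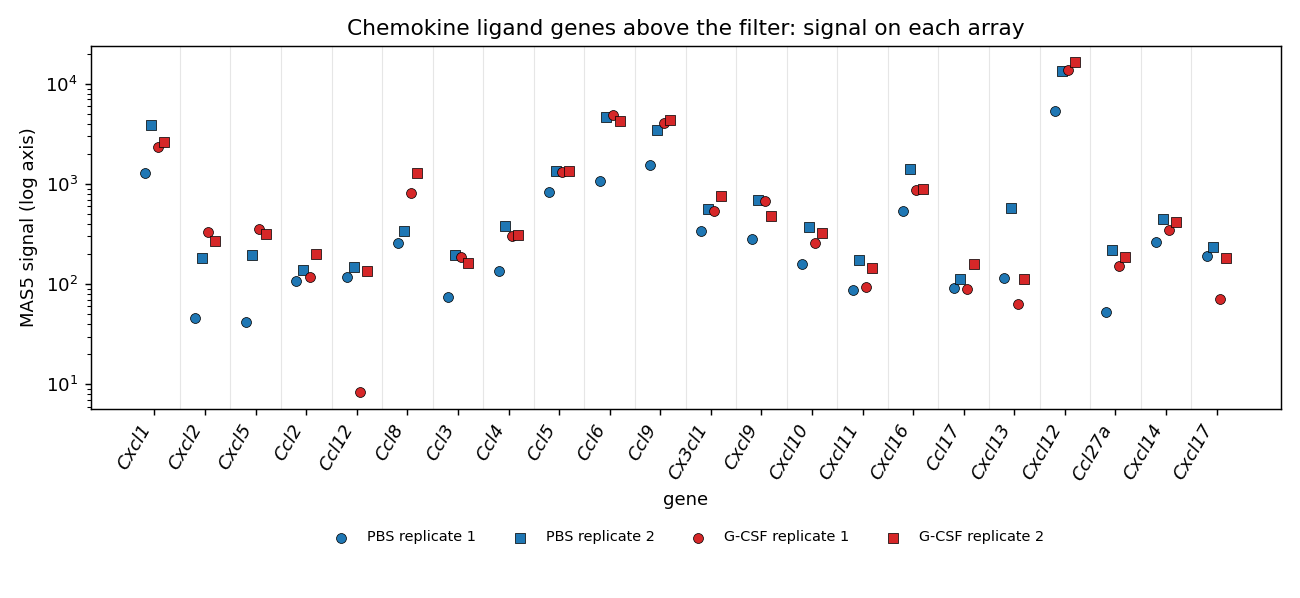
MAS5 signal (log axis) of the 22 tested chemokine ligand genes on each array, ordered by the leukocytes they attract; heights of different genes come from different probe sets and are not comparable. Both G-CSF points lie above both PBS points for Ccl8, Cxcl2 and Cxcl5, and PBS replicate 1 is the lowest point for most genes.

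The CXCR2 ligands, which attract neutrophils, were split. Cxcl2, made by macrophages on stimulation, had signals of 45.5 and 181 on the PBS arrays, against 329 and 271 on the G-CSF arrays. Cxcl5, largely an epithelial product, had signals of 42.2 and 194 on the PBS arrays, against 357 and 317 on the G-CSF arrays. For both genes each G-CSF array was above each PBS array, and PBS replicate 1 was below background. The computed log2 difference was 1.45 ± 0.61 for Cxcl2 and 1.60 ± 0.65 for Cxcl5 (limma adjusted p = 0.988 for each). With PBS replicate 1 raised to the background limit, Cxcl2 was 1.98-fold higher, just short of the 2-fold limit, and Cxcl5 2.15-fold higher. The size of both differences depended on PBS replicate 1: without that array the differences were 0.66 and 0.73, below the 2-fold limit. Against it alone, taken at the background limit, they were at least 1.32 and 1.47. Cxcl1, an inducible chemokine closely related to Cxcl2, had signals of 1303 and 3845 on the PBS arrays, against 2371 and 2635 on the G-CSF arrays. Its G-CSF arrays lay between the PBS arrays, with a difference of 0.16 ± 0.58, and its other 2 probe sets gave −0.12 and −0.14. Of the neutrophil markers, 10 of 10 tested were at least 2-fold higher with G-CSF with no overlap (4.04 percent of all tested genes). They were higher with G-CSF like Cxcl2 and Cxcl5. Between the PBS arrays the order was opposite, since the neutrophil sum was higher on replicate 1 and both ligands were lower there. The part of neutrophils in these differences was not tested.

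The promoters of the neighbouring genes Cxcl1 and Cxcl2 are shown because the pair carries the same candidate regulatory match while the signals behaved differently. Each line gives the 250 bases before the RefSeq start (GRCm38.p6), 5′ to 3′ on the gene's strand, with capitals marking a match to the NF-kB consensus on either strand.
Cxcl2, chr5:90903649-90903898, plus strand: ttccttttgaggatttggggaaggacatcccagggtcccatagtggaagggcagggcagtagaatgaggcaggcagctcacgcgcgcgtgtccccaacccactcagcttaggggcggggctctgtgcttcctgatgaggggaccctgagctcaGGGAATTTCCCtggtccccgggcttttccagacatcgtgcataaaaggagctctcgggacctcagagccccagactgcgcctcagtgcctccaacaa
Cxcl1, chr5:90890995-90891244, plus strand: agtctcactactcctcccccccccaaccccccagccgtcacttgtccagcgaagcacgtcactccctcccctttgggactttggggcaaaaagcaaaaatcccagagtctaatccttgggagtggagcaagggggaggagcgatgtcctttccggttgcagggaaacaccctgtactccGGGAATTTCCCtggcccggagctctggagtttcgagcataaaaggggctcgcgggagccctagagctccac
In both windows the matches on the plus and minus strands overlap in the same palindrome of 11 bases, GGGAATTTCCC, which began 97 bases before the Cxcl2 start and 71 before the Cxcl1 start. The NF-kB consensus was found in this window in 7 of the 23 ligand genes that have a promoter in the RefSeq table (Ccl1, Ccl9, Ccl20, Cxcl1, Cxcl2, Cxcl3 and Cxcl10) and in 8.23 percent of all 27025 genes listed. The exact 11 bases, looked up after they had been seen in this pair, were in 14 genes of the table, of which 3 were Cxcl1, Cxcl2 and Cxcl3. The letters TTCNNNGAA, the palindrome bound by STAT proteins, occurred in the windows of Ccl17 and Cxcl14 among the 23 and in 8.13 percent of all genes. These are letter matches only, with no measurement of binding.

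Among the monocyte attractants that act on CCR2 or, for mouse Ccl8, mainly on CCR8, Ccl8 had the smallest p-value of all ligand genes tested. Its signals were 255 and 337 on the PBS arrays, against 823 and 1287 on the G-CSF arrays, above background on all 4 arrays. Both G-CSF arrays were thus above both PBS arrays, and the PBS arrays lay within 1.29-fold of each other. Ccl8 was 3.33-fold higher (1.74 ± 0.38, limma adjusted p = 0.678, from 0.165 to 0.787 over the alternative settings that kept all 4 arrays). Ccr8 itself was not above background on any array (10.6 to 73.6). The Ccl8 difference was 1.92 against PBS replicate 1 alone and 1.55 against PBS replicate 2 alone. With each of the 4 arrays left out in turn, Ccl8 was the 1 ligand gene at least 2-fold higher without overlap every time. It was the 1 such gene without PBS replicate 1 (4.48 percent of all genes) and 1 of 9 without PBS replicate 2 (16.5 percent), 1 of 3 without G-CSF replicate 1 (4.91 percent) and 1 of 4 without G-CSF replicate 2 (4.99 percent).

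Which PBS array was used changed how many ligand genes were called. With 1 PBS array left, the spread that limma used came from the G-CSF arrays alone. Without PBS replicate 1, limma called Ccl8 higher (2.78 percent of all genes) and Cxcl13 lower (1.45 percent). Without PBS replicate 2 it called 12 of the 22 ligand genes higher (22.6 percent of all genes) and 0 lower (15.9 percent). The 2-fold rule called Cxcl13 and Ccl12, whose low value was not above background, lower without PBS replicate 1 (2.44 percent of all genes), 0 ligand genes without PBS replicate 2 (11.1 percent), Cxcl13 without G-CSF replicate 1 (2.19 percent) and Ccl12, Cxcl13 and Cxcl17 without G-CSF replicate 2 (2.54 percent).

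The CCR2 ligands gave no separation of this kind. Ccl2, the main monocyte chemoattractant, had signals of 107 and 139 on the PBS arrays, against 117 and 201 on the G-CSF arrays, with a difference of 0.29 ± 0.45. Its groups overlapped, and PBS replicate 1 was barely above the background limit. Ccl12, a mouse relative of Ccl2, had signals of 119 and 149 on the PBS arrays, against 8.37 and 135 on the G-CSF arrays. A single value on G-CSF replicate 1 that was not above background set its computed difference of −1.15 ± 0.85. Without that array the difference was 0.01, and with the signal raised to the background limit it was −0.25. By the computed values Ccl12 was the 1 ligand gene at least 4-fold below the other 3 arrays on any array (0.0164 percent of all genes on G-CSF replicate 1), but at the limit that array was 1.30-fold below the next. Ccl7 lay below the limit for testing, and none of its signals (22.7 to 54.2) was above background. The monocyte markers moved with Ccl8 in part, and 4 of 6 were measured. Of the 4, 3 were at least 2-fold higher with G-CSF without overlap (4.04 percent of all tested genes). All 4 summed to 5668 and 15159 on the PBS arrays, against 14497 and 17716 on the G-CSF arrays. Fn1, whose groups overlapped, gave most of each sum, with 4699 and 13388 on the PBS arrays, against 9468 and 11057 on the G-CSF arrays. Kupffer cell markers (10 of 10 measured) summed to 37111 and 90272 on the PBS arrays, against 69789 and 64903 on the G-CSF arrays, with Timd4 and Marco not above background on any array. None of the 8 tested was at least 2-fold apart without overlap. The part of either cell type in the Ccl8 difference was not tested.

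Ccl8 and Ccl12 are neighbours on chromosome 11 in RefSeq, and their promoters are shown as a pair whose signals behaved differently. Each line gives the 250 bases before the start (GRCm38.p6), with capitals marking the letters TATAAA, the core of a TATA box, searched on both strands.
Ccl8, chr11:82114935-82115184, plus strand: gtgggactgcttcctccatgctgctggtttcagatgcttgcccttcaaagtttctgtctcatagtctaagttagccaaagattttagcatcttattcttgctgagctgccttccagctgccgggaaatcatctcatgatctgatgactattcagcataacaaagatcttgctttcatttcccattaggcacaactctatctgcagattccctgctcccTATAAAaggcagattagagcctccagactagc
Ccl12, chr11:82101595-82101844, plus strand: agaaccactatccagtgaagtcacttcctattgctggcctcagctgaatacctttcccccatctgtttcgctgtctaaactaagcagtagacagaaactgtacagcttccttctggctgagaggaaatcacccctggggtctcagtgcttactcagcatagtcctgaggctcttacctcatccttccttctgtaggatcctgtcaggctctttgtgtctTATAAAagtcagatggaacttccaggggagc
TATAAA began 32 bases before the Ccl8 start and 31 before the Ccl12 start. It was in the windows of 9 of the 23 ligand genes and of 14.3 percent of all genes, and neither of these windows held the NF-kB consensus or TTCNNNGAA.

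The CC ligands Ccl3, Ccl4, Ccl5, Ccl6 and Ccl9 attract macrophages, NK cells and effector T cells. All 5 were tested, and in RefSeq they follow each other along chromosome 11 with no other protein-coding gene between them. None was at least 2-fold apart without overlap, and all 5 had their lowest signal on PBS replicate 1. Ccl6, a constitutive product of myeloid cells in the mouse, had signals of 1064 and 4678 on the PBS arrays, against 4879 and 4257 on the G-CSF arrays. PBS replicate 1 alone was low, so the difference of 1.02 ± 0.73 became −0.04 without it and 2.08 against it alone, and a second Ccl6 probe set gave 0.92. Ccl9, also constitutive in myeloid cells, had signals of 1537 and 3446 on the PBS arrays, against 4056 and 4369 on the G-CSF arrays. Its groups did not overlap (18.6 percent of all genes were higher without overlap), with a difference of 0.86 ± 0.48 that was 0.29 without PBS replicate 1.

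Ccl5 (RANTES), which T cells and NK cells store and secrete, had signals of 834 and 1338 on the PBS arrays, against 1325 and 1359 on the G-CSF arrays. The gene was thus low on the array with the highest T cell sum and, mostly through Gzma, the highest NK cell sum. Of 5 tested NK cell markers 3 were lowest on that array and 2 highest. The part of these cells in the Ccl5 values was not tested. The other 3 arrays were nearly level for Ccl5, with a difference of 0.34 ± 0.38 that was 0.0044 without PBS replicate 1. Ccl3 and Ccl4, inducible products of activated macrophages, had differences of 0.43 ± 0.52 and 0.38 ± 0.54. Ccl3 signals were 75.1 and 197 on the PBS arrays, against 186 and 164 on the G-CSF arrays. Ccl4 signals were 135 and 382 on the PBS arrays, against 302 and 311 on the G-CSF arrays. In both genes the G-CSF arrays lay between the PBS arrays, and without PBS replicate 1 the differences were −0.16 and −0.30.

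Cx3cl1 (fractalkine), a membrane-bound ligand that holds patrolling monocytes, had signals of 339 and 559 on the PBS arrays, against 532 and 766 on the G-CSF arrays. Its groups overlapped, with a difference of 0.53 ± 0.41.

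The CXCR3 ligands Cxcl9, Cxcl10 and Cxcl11 are induced by interferon and attract activated T and NK cells. All 3 were highest on PBS replicate 2 and lowest on PBS replicate 1, with the G-CSF arrays between. Cxcl9 signals were 281 and 696 on the PBS arrays, against 681 and 479 on the G-CSF arrays, a difference of 0.35 ± 0.52. Cxcl10 signals were 158 and 371 on the PBS arrays, against 256 and 327 on the G-CSF arrays, a difference of 0.23 ± 0.49. For Cxcl11 the signals were 87.3 and 174 on the PBS arrays, against 93.3 and 144 on the G-CSF arrays, a difference of −0.08 ± 0.50. The spread between the PBS arrays was thus larger than the difference between groups in each, and without PBS replicate 1 the differences were −0.28, −0.33 and −0.50. Cxcl16, the ligand of CXCR6 on NKT and effector T cells, followed the same order of arrays, with signals of 538 and 1407 on the PBS arrays, against 874 and 897 on the G-CSF arrays. Its difference was 0.02 ± 0.52, −0.11 by another probe set and −0.65 without PBS replicate 1.

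Of the ligands of CCR4 and CCR8, which attract Th2 and regulatory T cells, Ccl17 was tested besides Ccl8, described above. Ccl17 signals of 91.0 and 114 on the PBS arrays, against 89.3 and 159 on the G-CSF arrays, overlapped, with a difference of 0.19 ± 0.46. Ccl22 and Ccl1 lay below the limit for testing.

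The homeostatic ligands Cxcl12 and Cxcl13 had differences of opposite sign. Cxcl12, the CXCR4 ligand that retains haematopoietic cells in the marrow and is made by stromal and endothelial cells, had signals of 5334 and 13331 on the PBS arrays, against 13918 and 16396 on the G-CSF arrays. The groups did not overlap (18.6 percent of all genes were higher without overlap), but PBS replicate 2 was close to the G-CSF arrays. The difference was 0.84 ± 0.50, and 0.18 without PBS replicate 1. A second probe set had signals of 753 and 4872 on the PBS arrays, against 3366 and 3075 on the G-CSF arrays, so that its groups overlapped. Stellate cell and fibroblast markers (8 of 8 measured) summed to 44133 and 80477 on the PBS arrays, against 69860 and 77312 on the G-CSF arrays, and endothelial markers (6 of 6, Pecam1 not above background) to 2002 and 6174 and to 4046 and 4998. Both sums were lowest on the array where Cxcl12 was lowest, and their part in the Cxcl12 values was not tested.

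Cxcl13, which draws B cells into follicles through CXCR5, had signals of 115 and 582 on the PBS arrays, against 63.0 and 113 on the G-CSF arrays. G-CSF replicate 1 was not above background, so the computed difference of −1.42 ± 0.79 (limma adjusted p = 0.988) holds an unmeasured value. With that signal raised to the background limit Cxcl13 was 2.37-fold lower. The G-CSF arrays lay below both PBS arrays, though PBS replicate 1 was only slightly above G-CSF replicate 2. PBS replicate 2 set the size: with G-CSF replicate 1 at the limit, the difference was −0.18 without it and −2.31 against it alone. A second probe set gave −0.97. Cxcl13 was the 1 ligand gene at least 4-fold above the other 3 arrays on any array, here PBS replicate 2 (0.0246 percent of all genes).

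The remaining ligands above the limit for testing, Ccl27a, Cxcl14 and Cxcl17, did not separate the groups by 2-fold. Ccl27a, a skin-homing ligand of CCR10 read by a probe set marked as liable to bind related transcripts, had signals of 53.1 and 220 on the PBS arrays, against 154 and 188 on the G-CSF arrays, a difference of 0.51 ± 0.65 that was −0.33 without PBS replicate 1. Cxcl14, a constitutive epithelial and stromal chemokine, had signals of 262 and 445 on the PBS arrays, against 349 and 420 on the G-CSF arrays, a difference of 0.15 ± 0.39. A second Cxcl14 probe set gave 0.53. Cxcl17, a mucosal chemoattractant, had signals of 190 and 236 on the PBS arrays, against 70.9 and 182 on the G-CSF arrays. Its G-CSF arrays lay below both PBS arrays (12.1 percent of all genes did), with G-CSF replicate 1 not above background and a difference of −0.76 ± 0.52.

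The 11 ligand genes below the limit for testing had signals of 1.99 to 167. Not above background on any array by any probe set were Ccl7, Ccl11, Ccl20, Cxcl3 and Cxcl15. Ccl25 was not above it by its brightest probe set, and its other probe set barely exceeded the limit on PBS replicate 2 (95.5). Ccl22 was above it on both G-CSF arrays, where the limit was lower, Ccl24 on G-CSF replicate 2, and Ccl1 on PBS replicate 2 and G-CSF replicate 2. Ccl28 was above it on both G-CSF arrays, and by another probe set also on PBS replicate 2 (110). The eosinophil attractants were thus measured as weak, and of 5 eosinophil markers Prg2, Epx, Ccr3 and Il5ra were not above background. The remaining marker, Siglecf, had signals of 33.4 and 91.0 on the PBS arrays, neither above background, against 447 and 645 on the G-CSF arrays. It was at least 2-fold higher with G-CSF without overlap, as were 4.04 percent of all tested genes. Xcl1 (lymphotactin), which CD8 T cells and NK cells make to attract XCR1 dendritic cells, had signals of 97.0 and 167 on the PBS arrays, against 49.4 and 31.9 on the G-CSF arrays. Only PBS replicate 2 was above background, and PBS replicate 1 lay just below its limit of 106, where that of PBS replicate 2 was 94.6. The T cell sum and, mostly through Gzma, the NK cell sum were highest on PBS replicate 1. The part of these cells in the Xcl1 values was not tested. With no filter on low values, Xcl1 was at least 2-fold lower (1.67 percent of all genes) and Ccl20, the CCR6 ligand, at least 2-fold higher without overlap (3.86 percent), both with at least 1 group not above background.

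**Figure D3:**
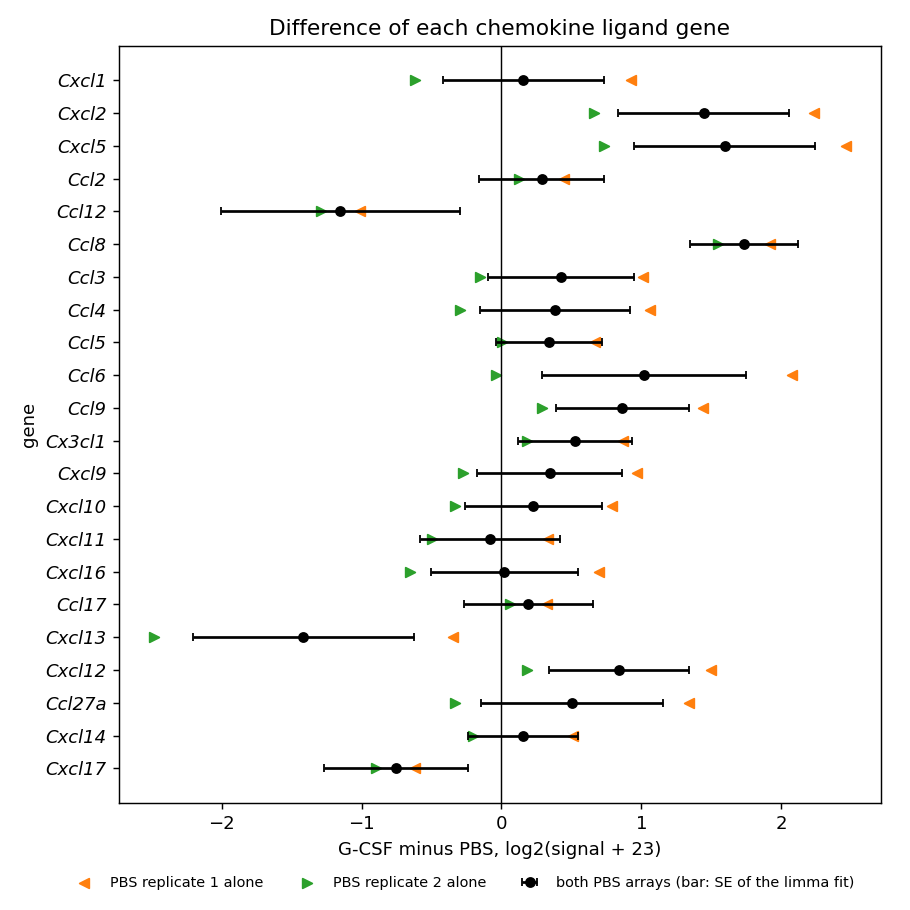
Difference between G-CSF and PBS (horizontal axis, log2 of signal + 23) for the 22 tested ligand genes, as points with the SE of the limma fit (n = 2 arrays per group), and as triangles against each PBS array alone. Ccl8 lies between 1.55 and 1.92 whichever PBS array is used, while Cxcl1, Cxcl16, Ccl4 and others fall on both sides of 0.

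PBS replicate 1 was the lowest array for most ligand genes. It had the lowest signal of the 4 arrays in 18 of the 22 tested genes, against 47.0 percent of all tested genes, and the highest in 0, against 33.7 percent. In 7 of the 22 (Ccl4, Ccl6, Ccl9, Ccl27a, Cxcl2, Cxcl5 and Cxcl12) it lay at least 2-fold below each other array, against 9.17 percent of all genes, and for Ccl27a, Cxcl2 and Cxcl5 its signal was not above background. PBS replicate 2 was the highest array in 12 of the 22, against 28.4 percent. The median SD between replicates was 0.82 for the ligand genes with PBS and 0.18 with G-CSF, where all tested genes had 0.49 and 0.15. The ligands were thus low on the array where the Kupffer cell, stromal, endothelial and hepatocyte sums were lowest. On that array the T cell sum and, mostly through Gzma, the NK cell sum were highest. The part of these cell types in the ligand signals was not tested.

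The receptors are the partners through which these ligands act. Of 24 conventional and atypical receptors listed, 22 were measured and 14 tested. By limma 0 passed an adjusted p of 0.05, 3 had an unadjusted p below 0.05 (all higher with G-CSF, as were 3.13 percent of all genes), and the same 3 (Cxcr2, Ccr1 and Ccr2) were at least 2-fold higher with G-CSF without overlap (4.04 percent of all genes). None was at least 2-fold lower. The median difference over the 14 was 0.53, against 0.07 over all tested genes. PBS replicate 1 was the lowest array in 10 of the 14, against 47.0 percent of all tested genes.

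Cxcr2, the neutrophil receptor for Cxcl1, Cxcl2 and Cxcl5, had signals of 37.4 and 23.5 with PBS, neither above background, and 848 and 1240 with G-CSF. It was at least 8.51-fold higher, taking the background limit for PBS (limma adjusted p = 0.0893). Ccr1, carried by neutrophils and monocytes and a receptor for Ccl3, Ccl5, Ccl6 and Ccl9, had signals of 232 and 281 on the PBS arrays, against 1541 and 1381 on the G-CSF arrays. It was 5.32-fold higher (2.41 ± 0.32, limma adjusted p = 0.173), and 2.53 by a second probe set. Ccr2, the monocyte receptor, had signals of 803 and 1403 on the PBS arrays, against 3082 and 4053 on the G-CSF arrays. It was 3.28-fold higher (1.71 ± 0.42, limma adjusted p = 0.795), whereas its other 2 probe sets gave 0.90 and 0.95. In all 3 both G-CSF arrays stood above both PBS arrays, and each stayed at least 2-fold higher with any 1 array left out, while with the mean of all probe sets Ccr2 was below 2-fold. Cxcr2 is in the neutrophil marker list and Ccr2 in the monocyte list, so neither is independent of those sums.

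**Figure D4:**
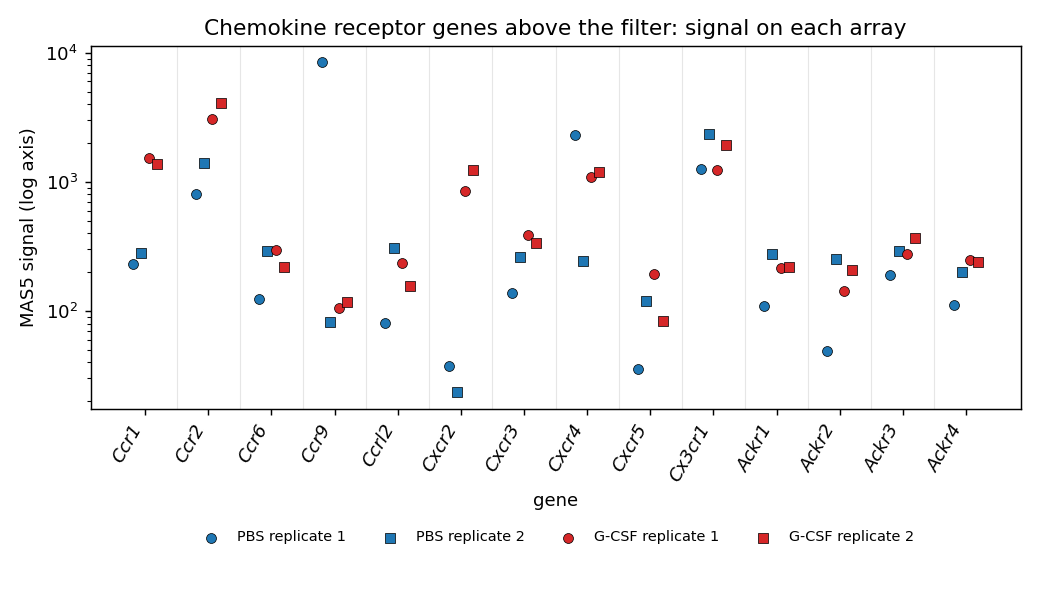
MAS5 signal (log axis) of the 14 tested chemokine receptor genes on each array; heights of different genes are not comparable. Ccr1, Ccr2 and Cxcr2 have both G-CSF points above both PBS points by at least 2-fold, and Ccr9 is high on PBS replicate 1 alone.

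Among receptors of lymphocyte traffic, Cxcr4 and Ccr9 had 1 array far from the rest. Cxcr4, the Cxcl12 receptor, had signals of 2293 and 242 on the PBS arrays, against 1101 and 1198 on the G-CSF arrays, so that its difference of 0.58 ± 1.03 was 2.14 against PBS replicate 2 alone and −0.98 against PBS replicate 1 alone. Ccr9, the Ccl25 receptor of thymocytes and gut-homing T cells, had a signal of 8433 on PBS replicate 1 and 81.7 to 118 elsewhere, while Ccl25 was at or near background on all arrays. Cxcr3, the receptor for Cxcl9, Cxcl10 and Cxcl11, had signals of 138 and 261 on the PBS arrays, against 387 and 335 on the G-CSF arrays. Its groups did not overlap (18.6 percent of all genes were higher without overlap), with a difference of 0.84 ± 0.42. The Cxcr3 difference was 1.25 against PBS replicate 1 alone and 0.43 against PBS replicate 2 alone. Cxcr5, the Cxcl13 receptor, overlapped between the groups (0.74 ± 0.66, with PBS replicate 1 not above background), as did Cx3cr1, the Cx3cl1 receptor (−0.16 ± 0.47). The atypical receptors Ackr1, Ackr2, Ackr3 and Ackr4, which bind chemokines without G protein signalling, had differences of 0.28 to 0.64, none of 2-fold. Ccr10, the Ccl27a receptor, lay below the limit for testing, with signals of 10.4 and 19.0 on the PBS arrays, neither above background, against 92.2 and 125 on the G-CSF arrays. With no filter it was at least 2-fold higher without overlap (3.86 percent of all genes), a fold that has no measured PBS level behind it.

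The platelet chemokines Ppbp and Pf4 belong to the CXC family but carry other symbols, so they stand outside the 33 genes. Pf4 signals were 2707 and 3002 on the PBS arrays, against 5500 and 4133 on the G-CSF arrays, a difference of 0.74 ± 0.33. Its groups did not overlap (18.6 percent of all genes were higher without overlap). Ppbp, whose product is a CXCR2 ligand, had signals of 109 and 159 on the PBS arrays, against 4489 and 280 on the G-CSF arrays. Both G-CSF arrays were above both PBS arrays, but 1 of them held most of the difference.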

How the data were processed

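Each of the 4 samples was hybridised to 1 Affymetrix mouse array with 45101 probe sets, starting from 40 ng of total RNA. The authors deposited linear MAS5 intensity values, per the submitters' processing notes, whose 2% trimmed mean is 500.003 on each array. No version of MAS5 is named in those notes, and no detection calls were used. By the platform annotation 34945 probe sets list 1 gene, 932 several and 9160 none, and 64 are controls. The 4 chemokine probe sets that list several genes were left out of the comparisons. Before taking log2, 23 was added, the overall median of 92.9 divided by 4, as a whole number. A total of 12187 genes were tested with limma 3.58.1 in R 4.3.3 (lmFit, eBayes with trend, two-sided, Benjamini-Hochberg). The number of arrays limits precision. Scaling to 1 trimmed mean cannot show a shift of all transcripts.

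Every ligand gene above the filter is named, as are ligand genes below it and receptors called by either rule or paired with a ligand described. The members, lists, limits and rules were chosen with earlier results of these data known. Promoters are from RefSeq, GRCm38.p6; of 33 ligand genes 23 had one. Alternatives were 2 other scalings (quantile, median), pseudocounts of 1 and 92, dropping the filter or raising it to the 75th percentile (465), eBayes untrended or robust, averaged or specific probe sets, the replicate number as a block, and each array left out.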

Additional observations from a re-analysis of the deposited data

How the results depend on the processing

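The 3 ligand genes higher by size (Ccl8, Cxcl2 and Cxcl5) and the 1 lower (Cxcl13) were the same under both other scalings (quantile, median), both other pseudocounts (1 and 92), an untrended or robust eBayes, averaged probe sets and specific ones only. With the 75th percentile filter, under which 9 ligand genes were tested, 1 was higher (Ccl8) and 0 lower. With no filter there were 2 lower, Cxcl13 and Xcl1. With each array left out in turn the count higher ran from 1 to 9 and the count lower from 0 to 3, and from 0 to 12 ligand genes passed the adjusted threshold (2 without PBS replicate 1, 12 without PBS replicate 2). For receptors these ranges were 3 to 7, 0 to 1 and 0 to 7. For all genes they were 546 to 2007 higher, 267 to 1349 lower and 6 to 4689 passing. The lone PBS array is then assumed to vary like the G-CSF arrays.

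Over all genes, the 75th percentile filter gave 295 higher and 83 lower by size. The count lower was 107 with the pseudocount of 92, 304 with no filter and 120 with the mean of all probe sets, and 11 genes passed the adjusted threshold with specific probe sets only. The count of ligand genes at least 4-fold above the other arrays on PBS replicate 2 was 0 with the pseudocount of 92, the 75th percentile filter and the mean of all probe sets, and that below on G-CSF replicate 1 (Ccl12, from a signal not above background) was 0 with the pseudocount of 92 and the 75th percentile filter. With a pseudocount of 1, 1 ligand gene was at least 4-fold below on PBS replicate 1. With the replicate number as a block, 92 genes, 0 ligand genes and 2 receptors (Ccr1 and Cxcr2) passed. Arrays with the same number shared only the number: the deviations of PBS and G-CSF replicates correlated at −0.04 over genes.

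The difference of 13 ligand genes changed sign with 1 array left out, and that of Cxcl1, Cxcl11 and Cxcl16 also under other settings. The sign changed without PBS replicate 1 for Ccl3, Ccl4, Ccl6, Ccl27a, Cxcl1, Cxcl9, Cxcl10, Cxcl14 and Cxcl16. For Ccl2, Ccl12, Ccl17 and Cxcl11 it changed without another array. Groups that do not overlap keep their sign with any 1 array left out. The size rule could therefore not call these genes with all 4 arrays, though several were called with 1 left out. The cause was not tested. With signals raised to the background limit, a setting chosen after seeing the data, 2 ligand genes were higher (Ccl8 and Cxcl5) and 1 lower (Cxcl13). Signals near background limit 9 of the 22 tested genes and most below the filter.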

Other observations

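The 4 chemokine probe sets that list several near-identical genes cannot be assigned to 1 gene. The probe set listing 9 copies and predicted genes of the Ccl21 family had signals of 156 and 27.0 on the PBS arrays, against 359 and 589 on the G-CSF arrays, so that both G-CSF arrays were above both PBS arrays and PBS replicate 2 was not above background. The probe set listing 10 genes of the Ccl19 family had signals of 520 and 647 on the PBS arrays, against 658 and 956 on the G-CSF arrays. Products of both families guide dendritic cells and naive T cells through CCR7, and Ccr7 itself was not above background on any array. The others list 5 genes of the Ccl27 family and gave 232 and 428 on the PBS arrays, against 324 and 291 on the G-CSF arrays, for the first, and 102 and 159, against 120 and 159, for the second.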
